A study of Mus musculus with 18 samples.

Results

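The comparison sets 3 libraries taken 1 day after adenovirus delivery against 3 libraries taken 3 hours after it, which are 6 of the 18 libraries of a time course in mouse salivary gland. All libraries come from gp38+ stromal cells, that is, cells sorted by flow cytometry for podoplanin, a surface glycoprotein of fibroblasts and lymphatic endothelium. The mice were wild-type Balb/c animals of 8 to 12 weeks, and each library came from its own mouse, so that each group holds 3 mice. In the infected groups (hour 3, day 1, day 2, day 8 and day 23) the duct of the submandibular gland was cannulated with 100000000 to 1000000000 plaque-forming units of a replication-defective adenovirus, Ad5, and the hour 0 mice were uninfected. The virus delivery is used to induce tertiary lymphoid structures, which are lymphoid aggregates outside the lymphoid organs. No group that was cannulated without virus was analysed here, so cannulation and virus cannot be told apart.

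Fibroblasts carry receptors for viral nucleic acid, for interferons and for cytokines of the IL-1, TNF and IL-6 families. As background, signalling through NF-kB and MAP kinases induces chemokine, cytokine and immediate-early genes within hours, and much of that RNA is short-lived. Interferon signalling works through STAT factors, which bind interferon-stimulated response elements and gamma-activated sites. Type I interferon mainly induces antiviral genes, and interferon-gamma also induces guanylate-binding proteins, CXCR3-binding chemokines and the MHC class I pathway.

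Total counts per library were 13886173 to 14881470 at hour 3 and 8734113 to 10635986 at day 1. The 18 libraries fall into 2 sets by their low-level background. Over 1458 olfactory, vomeronasal and taste receptor genes, which stromal cells are not known to use, the hour 3 libraries held 0.0427 to 0.0627 counts per kilobase and 10000000 counts of nuclear genes, and the day 1 libraries held 0.555 to 1.14. The hour 0 libraries held 1.16 to 1.87 and the day 2 libraries 3.14 to 3.36, while day 8 held 0.0250 to 0.0290 and day 23 held 0.0162 to 0.0294. Within the sets the background was not level, since day 1 lay below hour 0 and day 2, and hour 3 above day 8 and day 23. Hour 3 and day 1 thus lie in different sets, and for genes at any level the set and the time cannot be told apart in this comparison alone. For that reason, values are also given for day 1 beside hour 0, which lie in the same set, and for hour 3 beside day 8 and day 23.

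Markers of other cell types also differed between the groups. The sums are on library totals, a scale on which day 1 lies 1.03 higher against hour 3, in log2 units, than on the scale used for the gene values further on. Summed over 21 acinar and duct secretory genes, the level by library totals was 41910 to 73950 CPM (counts per 1000000 counts) at hour 3 and 3425 to 4427 at day 1, with 1 or 2 of the genes at 0 counts in each hour 3 library and 2 to 5 in each day 1 library. Mural cell markers (9 genes) summed to 1102 to 1242 CPM at hour 3 and 83.5 to 130.2 at day 1, a sum held mostly by Cspg4 and Abcc9. Of the 5 mural markers tested, 4 were lower at day 1, and Notch3, a receptor of pericytes and smooth muscle, was higher (log2 fold change 1.07, SE 0.25, adjusted p = 0.000902). Blood endothelial markers (12 genes) summed to 254 to 327 CPM at hour 3 and 528 to 700 at day 1. For macrophages, monocytes and dendritic cells (18 genes) the sums were 46.2 to 75.0 CPM at hour 3, and 68.2, 221 and 62.9 CPM in day 1 replicates 13, 14 and 15. T and NK cell markers (14 genes) summed to 2.38 to 3.49 CPM at hour 3, with 6 to 8 genes at 0, and to 14.7 to 19.2 at day 1, with 0 to 4 genes at 0. B and plasma cell markers (11 genes) summed to 1.09 to 4.97 CPM at hour 3, with 4 to 8 genes at 0. At day 1 they summed to 13.1 to 17.2, with 2 to 4 at 0. Uninfected hour 0 libraries, which share the background set of day 1, had T and NK sums of 14.87 to 26.98 CPM. Their B and plasma sums were 16.62 to 23.26 CPM. No day 1 sum of either list lay above these ranges, so the higher lymphocyte sums cannot be read as a trait of day 1. Neutrophil markers (10 genes) summed to 19.5 to 25.2 CPM at hour 3 and 4.51 to 16.6 at day 1, with 2 to 4 and 0 to 3 genes at 0. Glial markers (8 genes) summed to 81.3 to 147 CPM at hour 3 and 19.5 to 34.6 at day 1. For adipocyte markers (7 genes) the sums were 811 to 832 and 96.6 to 106 CPM, mostly of Lpl, lipoprotein lipase, with 3 or 4 genes at 0 at hour 3 and 1 or 2 at day 1. Epithelial and myoepithelial markers (15 genes) summed to 518 to 733 CPM at hour 3 and 401 to 469 at day 1, while lymphatic endothelial (7 genes) and erythroid sums (7 genes) were at most 22.7 CPM. Fibroblast markers (9 genes) summed to 22230 to 24010 CPM at hour 3 and 14560 to 18950 at day 1, with none at 0, so the sorted cell type's defining genes were present in all 6 libraries. The part of these other cells in the results below was not tested, and in such bulk samples fewer cells of a type and less RNA per cell cannot be told apart.

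**Figure D1:**
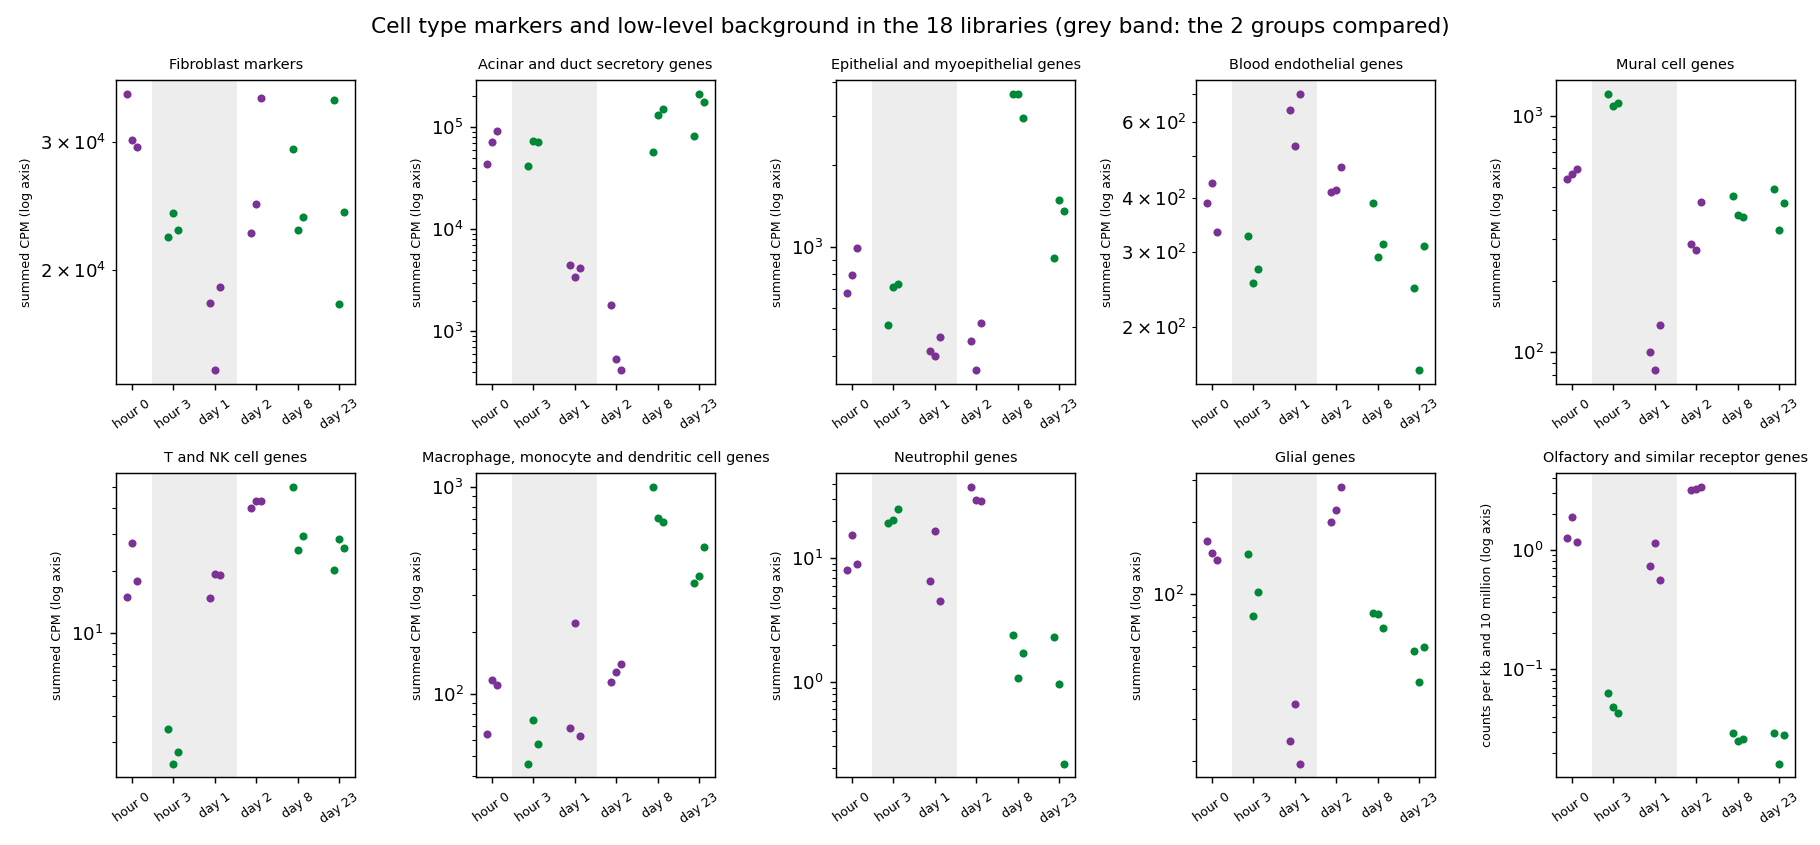
Summed levels of marker genes for 9 cell types in CPM by library totals, and the level of receptor genes in counts per kilobase and 10000000 counts of nuclear genes, all on log axes, with 1 point for each of the 18 libraries. Acinar sums are 41910 to 73950 at hour 3 and 3425 to 4427 at day 1, and the receptor background is 0.0427 to 0.0627 at hour 3 and 0.555 to 1.14 at day 1.

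Well-counted genes, those with at least 5 CPM in at least 3 of the 6 libraries, numbered 10515. With edgeR's quasi-likelihood test and Benjamini-Hochberg adjustment, 7259 of them (69%) differed between day 1 and hour 3 at an adjusted p under 0.05, 3722 higher at day 1 (35.4%) and 3537 lower (33.6%). Under the stricter question of a change of more than 2-fold, 3132 genes passed (29.8%), with 1551 higher (14.8%) and 1581 lower (15%). The values of all 3 libraries of a group lay apart from those of the other in 7863 genes (74.8%). Counts of list members below are to be read against these shares. The direction of small changes rests on the scaling. TMM scaling, which sets the bulk of genes level between libraries and is used throughout, gave a median log2 fold change of 0.05 over all tested genes, while scaling by library totals alone would move every value up by 1.03 and call 7080 genes higher and 1367 lower, or 83.8% higher among the calls against 51.3% here. TMM over a wider set of genes, those kept by edgeR's default filter, moved the values by -0.24 and called 2987 higher and 4227 lower. All CPM below are on the TMM scale unless stated otherwise, and every fold change is day 1 minus hour 3 on the log2 scale unless another comparison is named. P-values measure the spread between 3 mice a group. Gene coordinates are those of GENCODE M21 on mm10.

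**Figure D2:**
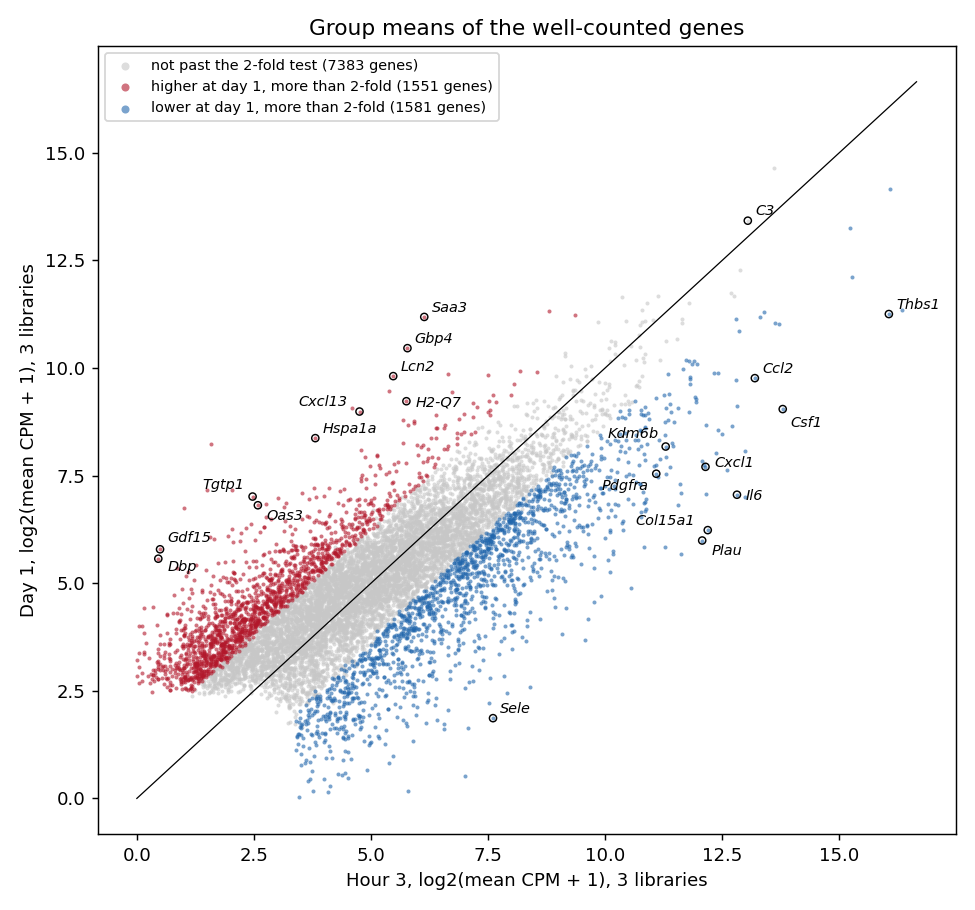
Mean level of each of the 10515 well-counted genes at hour 3 (x axis) and day 1 (y axis), as log2(CPM + 1) of 3 libraries each, with 1551 genes higher (red) and 1581 lower (blue) by more than 2-fold and the line of equal levels. Named genes such as Csf1, Thbs1 and Il6 lie far below the line at high hour 3 levels, and Saa3, Gbp4 and Lcn2 lie above it.

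Most inflammatory cytokine and chemokine genes fell between hour 3 and day 1. Of the 9 neutrophil-attracting and inflammatory chemokines tested, 8 were lower at day 1 and none was higher, with a median log2 fold change of -2.55. Among 19 inflammatory cytokines and enzymes, 15 were lower and 2 were higher, with a median of -2.49. Library totals alone left 6 of 9 chemokines and 12 of 19 cytokines and enzymes lower. Within the sets, all 9 chemokines and all 19 cytokines and enzymes were higher at hour 3 than at day 8 and than at day 23, beside 31.1% and 30.1% of all tested genes (35.1% and 35.8% were lower at hour 3). At day 1, 8 of the 9 and 16 of the 19 were still higher than at hour 0, beside 22.8% of all tested genes. The neutrophil marker S100a9 was lower at day 1 as well, from a mean of 18.5 to 0.478 CPM (log2 fold change -5.21, SE 0.59, adjusted p = 4.54e-07). It was the only 1 of the 10 neutrophil markers that passed the filter, which the hour 3 libraries alone met, so the filter favoured a fall. S100a9 does not stand for that list. Of the list, 0 to 3 genes were at 0 counts in each day 1 library. Uninfected hour 0 libraries of the same background set had 1 to 3 at 0, so these counts cannot be read as a trait of day 1.

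Il6 (ENSMUSG00000025746, chr5:30013114-30019981), which encodes a cytokine acting through the gp130 receptor, had 9471, 5941 and 6162 CPM at hour 3 and 171, 86.3 and 138 at day 1. Every hour 3 library was far above every day 1 library (log2 fold change -5.77, SE 0.63, adjusted p = 1.53e-07). The mean CPM elsewhere was 404 at day 2, 32.2 at day 8, 44.4 at day 23 and 24.1 in uninfected libraries, so day 1 lay between hour 0 and hour 3, and above hour 0 (log2 fold change 2.44, adjusted p = 0.00124). Csf1 (ENSMUSG00000014599, chr3:107741048-107760469) encodes the growth factor of macrophages. It had 14671, 14215 and 13581 CPM at hour 3 and 545, 411 and 623 at day 1, which makes it a top-level transcript at hour 3 with little spread between mice (log2 fold change -4.75, SE 0.22, adjusted p = 1.57e-12). Lif, a cytokine of the IL-6 family counted here with the MAP kinase targets, had 3682, 2619.6 and 2749 CPM at hour 3 and 152, 47.6 and 136 at day 1 (log2 fold change -4.75, SE 0.54, adjusted p = 2.3e-07). Ptgs2, the inducible cyclooxygenase of prostaglandin synthesis, had 9099.7, 5966 and 5100.1 CPM at hour 3 and 439, 326 and 432 at day 1 (log2 fold change -4.07, SE 0.42, adjusted p = 7.19e-08). Csf3, the growth factor of granulocytes, went from a mean of 257 to 13.7 CPM (log2 fold change -4.23, SE 0.42, adjusted p = 8.6e-08). All of these groups were without overlap. A different course was seen for Nos2, the inducible nitric oxide synthase, with 9.29, 7.92 and 6.82 CPM at hour 3 and 84.4, 103 and 69.2 at day 1, a rise in each library (log2 fold change 3.41, SE 0.31, adjusted p = 1.06e-08). Tslp, a cytokine of barrier tissue, rose from a mean of 24.7 to 48.5 CPM with overlapping groups (log2 fold change 0.97, SE 0.31, adjusted p = 0.00903).

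Among the chemokines, Cxcl1 (ENSMUSG00000029380, chr5:90891241-90893115), which attracts neutrophils through CXCR2, had 5871, 3938 and 3731 CPM at hour 3 and 287, 154 and 181 at day 1 (log2 fold change -4.45, SE 0.32, adjusted p = 4.59e-10). Cxcl2 (ENSMUSG00000058427, chr5:90903871-90905938), which binds the same receptor, had 1167, 794 and 640.5 CPM at hour 3 and 72.5, 7.36 and 39.0 at day 1 (log2 fold change -4.45, SE 0.63, adjusted p = 3.87e-06). Its day 1 libraries were widely spread, with replicate 14 lowest, yet all lay below hour 3. Ccl2 (ENSMUSG00000035385, chr11:82035571-82037453), which attracts monocytes, had 11337, 8729.9 and 8049 CPM at hour 3 and 1130.1, 649.6 and 821 at day 1 (log2 fold change -3.43, SE 0.44, adjusted p = 1.25e-06). Ccl11, the eosinophil attractant eotaxin, went from 3901 to 593 CPM (log2 fold change -2.72, SE 0.27, adjusted p = 3.99e-08). Ccl8 was the member that did not pass, with means of 49.8 CPM at hour 3 and 47.2 at day 1, a difference that turned in sign under library totals.

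Promoters of Cxcl1, Cxcl2 and Il6 are shown because all of them hold the letters of an NF-kB site, GGG followed by any 2 bases and TTTCC (both strands searched, matches in capitals). The sequences are RefSeq's for GRCm38.p6, 5′ to 3′ on the gene's strand, up to 250 bases before the transcription start, without bases inside the annotated gene.
Cxcl1, chr5:90890995-90891240, + strand: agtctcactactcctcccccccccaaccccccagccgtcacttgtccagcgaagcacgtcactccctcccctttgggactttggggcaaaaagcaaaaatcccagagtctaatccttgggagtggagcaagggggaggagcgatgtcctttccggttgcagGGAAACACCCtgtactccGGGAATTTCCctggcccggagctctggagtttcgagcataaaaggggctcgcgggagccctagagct
Cxcl2, chr5:90903649-90903870, + strand: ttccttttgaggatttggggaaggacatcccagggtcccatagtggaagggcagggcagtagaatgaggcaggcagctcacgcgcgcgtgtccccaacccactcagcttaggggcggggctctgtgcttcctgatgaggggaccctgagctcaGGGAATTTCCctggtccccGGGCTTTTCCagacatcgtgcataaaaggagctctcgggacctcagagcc
Il6, chr5:30012864-30013113, + strand: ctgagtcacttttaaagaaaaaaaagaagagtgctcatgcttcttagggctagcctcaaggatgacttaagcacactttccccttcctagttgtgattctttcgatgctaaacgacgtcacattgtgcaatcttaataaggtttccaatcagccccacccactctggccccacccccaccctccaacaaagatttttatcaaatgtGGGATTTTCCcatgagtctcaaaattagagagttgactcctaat
These letters were found in 3 of the 5 tested chemokine genes with an entry and in 3 of 15 cytokine and enzyme genes, against 1.65% of the 27025 genes with a promoter entry and 1.75% of the 8125 tested genes that have one. Across all 142 tested genes whose window holds these letters, 40.8% were higher at day 1 and 33.8% lower, beside 36.4% and 32.6% of all tested genes with an entry. A match is a description of the letters in the window and not a site in use.

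Most genes of NF-kB subunits and inhibitors fell too. Of 17 tested, 13 were lower at day 1, 2 were higher, and the median log2 fold change was -1.26, which library totals alone reduced to -0.23 with 7 lower. Nfkb1, which encodes the p105 precursor of the p50 subunit, had 2944, 2384 and 2179 CPM at hour 3 and 179.6, 170.2 and 200.2 at day 1 (log2 fold change -3.77, SE 0.24, adjusted p = 9.09e-11). The feedback inhibitor gene Tnfaip3, which encodes the ubiquitin-editing enzyme A20, had 1836, 1484 and 1416 CPM at hour 3 and 347, 296 and 309 at day 1 (log2 fold change -2.31, SE 0.35, adjusted p = 9.49e-06). It remained above hour 0 at day 1 (log2 fold change 2.78, adjusted p = 2.61e-06). Zc3h12a, an RNase that degrades cytokine transcripts, fell from 619 to 48.1 CPM (log2 fold change -3.69), and Rel, a subunit gene, from 116 to 9.82 CPM (-3.56). The 2 members that rose were Nfkbie, an inhibitor gene, from 33.6 to 89.6 CPM, and the TNF receptor adaptor gene Traf1, from 3.54 to 15.6 CPM.

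Genes of cytokine signalling and its feedback mostly fell. Of 15 genes in the STAT and SOCS list, 11 were lower and 3 higher, with a median log2 fold change of -1.45, and library totals gave 7 lower, 4 higher and a median of -0.41. Il4ra, the IL-4 receptor chain, fell from 1904 to 298 CPM (log2 fold change -2.67, SE 0.27, adjusted p = 3.87e-08), Socs3, an inhibitor of gp130 signalling, from 1733 to 486 CPM (log2 fold change -1.83, SE 0.20, adjusted p = 1.4e-07), and Stat3, the main factor of that pathway, from 1314 to 460.1 CPM (log2 fold change -1.51, SE 0.15, adjusted p = 4.6e-08). Stat2, a factor of type I interferon signalling, rose, with 127, 129 and 121 CPM at hour 3 and 446, 588 and 436 at day 1 (log2 fold change 1.97, SE 0.21, adjusted p = 7.87e-08), and the lowest day 1 value was above every hour 3 value. Stat6, a factor of IL-4 signalling, rose from 70.1 to 119 CPM (log2 fold change 0.77).

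**Figure D3:**
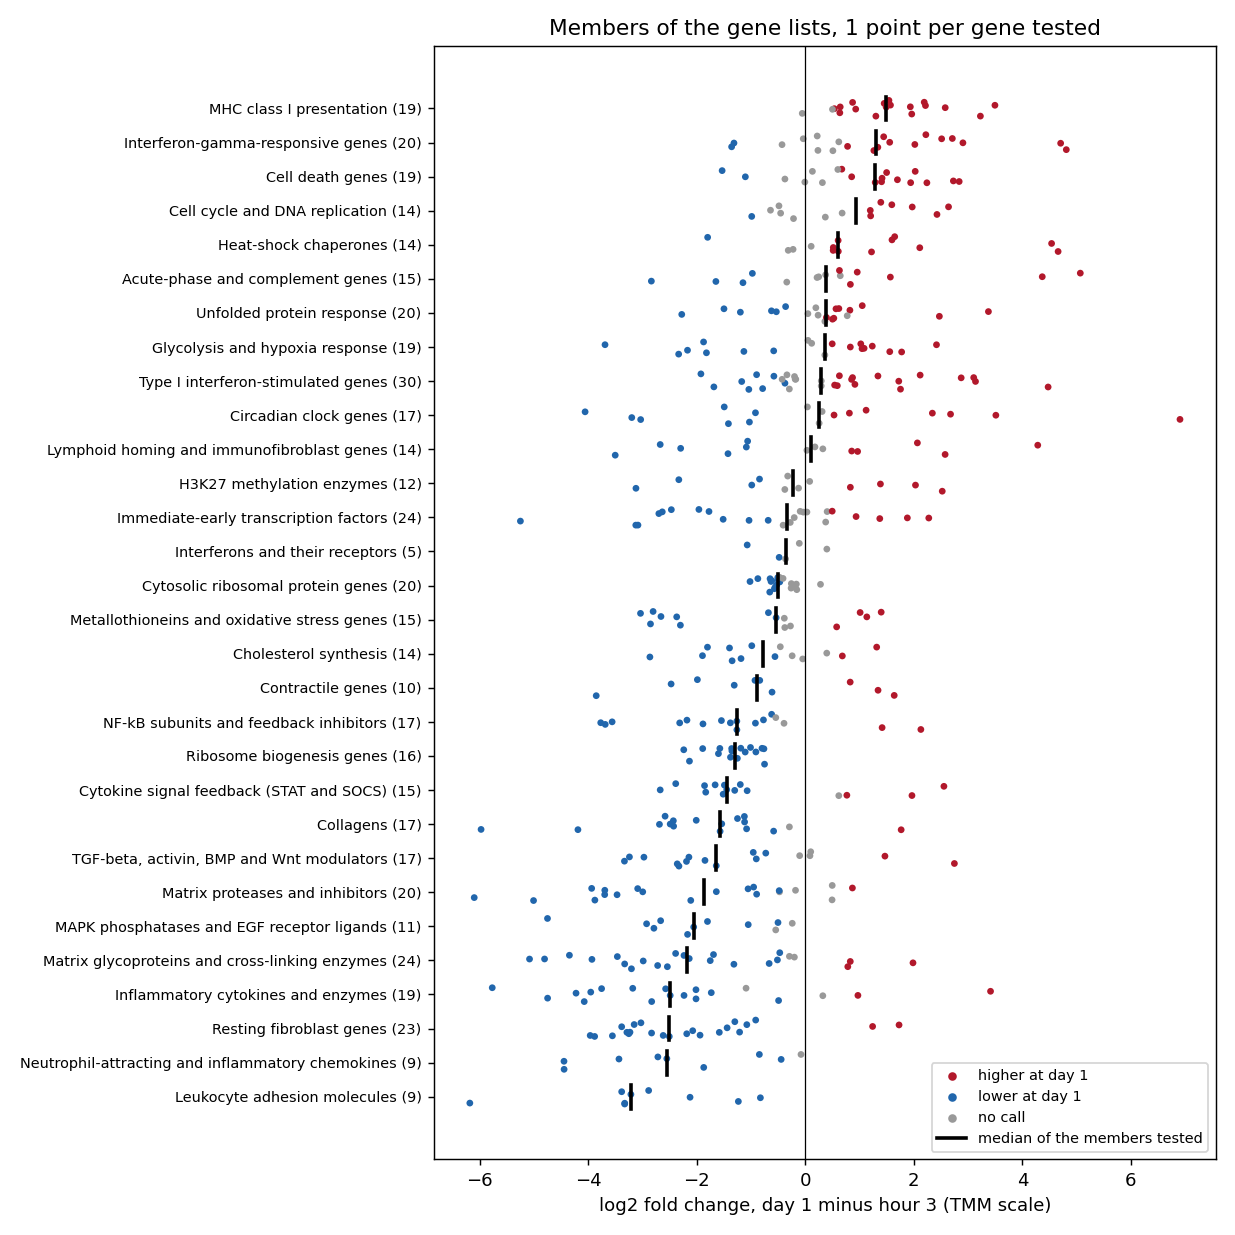
Log2 fold change from hour 3 to day 1 for each tested member of 30 gene lists, ordered by the list's median (black bar), with members higher at day 1 in red, lower in blue and not called in grey. MHC class I genes have the highest median, 1.49, and leukocyte adhesion molecules the lowest, -3.21.

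Immediate-early transcription factor genes went both ways. Of 24 tested, 11 were lower and 5 were higher at day 1, and the median log2 fold change of -0.34 turned to 0.69 under library totals alone, with 13 higher. Nr4a3, an orphan nuclear receptor, had 1195, 866 and 815 CPM at hour 3 and 17.6, 31.4 and 26.6 at day 1, below the hour 0 mean of 106 (log2 fold change -5.25, SE 0.36, adjusted p = 3.06e-10). Myc, the growth-promoting transcription factor, had 675, 647 and 650.5 CPM at hour 3 and 110.1, 66.5 and 127 at day 1 (log2 fold change -2.70, SE 0.23, adjusted p = 4.16e-09). Egr2, Maff, Ier5 and Ier3 also fell by more than 2-fold. Fos, a subunit of AP-1 induced by growth factors and stress, had 1426, 992 and 820.3 CPM at hour 3 and 1429, 1571 and 1201 at day 1, with overlapping groups (log2 fold change 0.38, SE 0.23, adjusted p = 0.147). Egr1 overlapped as well, with 1564, 942 and 1024 CPM at hour 3 and 1552, 1708 and 1403 at day 1 (log2 fold change 0.40, SE 0.23, adjusted p = 0.121). Fosb rose from 858, 574 and 518 to 2191, 2879.9 and 2105 CPM (log2 fold change 1.88, SE 0.29, adjusted p = 1.22e-05), while its mean in uninfected libraries was 2809 CPM. For Fosb the hour 3 group was therefore the low point, also beside day 8 (log2 fold change -1.37, adjusted p = 0.000339) and day 23 (log2 fold change -1.78, adjusted p = 2.63e-05). Jund, Klf2, Klf4 and Ier2 were the other members that rose. The call of Ier2 was lost with TMM over the wider set of genes (log2 fold change 0.25, edgeR adjusted p = 0.226) and without hour 3 replicate 5 or day 1 replicate 13 (adjusted p = 0.092 for each).

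Among MAP kinase phosphatases, Sprouty genes and EGF receptor ligands, 9 of 11 tested were lower and none higher (median log2 fold change -2.06). Hbegf, a ligand of the EGF receptor, went from a mean of 228 to 33.0 CPM (log2 fold change -2.79, SE 0.20, adjusted p = 4.42e-10), and Spred1, an inhibitor of Ras signalling, from 1209 to 190.4 CPM (log2 fold change -2.67, SE 0.18, adjusted p = 1.37e-10). Dusp6, a phosphatase acting on ERK, did not pass, at 67.2 and 56.9 CPM, and turned in sign under library totals.

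Kdm6b (ENSMUSG00000018476, chr11:69398508-69413675), which encodes the H3K27 demethylase named in the study's title, had 2452, 2583 and 2475 CPM at hour 3 and 265, 266 and 332 at day 1. The hour 3 libraries lay close to each other and far above every day 1 library (log2 fold change -3.12, SE 0.24, adjusted p = 1.1e-09). Day 1 was not distinguishable from hour 0, which had 238, 245 and 277 CPM (log2 fold change 0.18, adjusted p = 0.526), and the day 2 libraries held 550.5, 549.8 and 286 CPM. Inside its own set, hour 3 was higher than day 8 (log2 fold change 3.41, adjusted p = 4.96e-10). Kdm6a, the related demethylase gene, had means of 44.0 and 46.5 CPM (log2 fold change 0.08, SE 0.16, adjusted p = 0.667). Ezh2, the methyltransferase of Polycomb complex 2, had 11.4 and 8.72 CPM (log2 fold change -0.38, SE 0.27, adjusted p = 0.225), a difference whose sign turned under library totals. Of the 12 enzymes and complex members tested, 4 were lower and 4 higher, near the 33.6% and 35.4% of all tested genes. Library totals gave 2 lower and 8 higher, and TMM over the wider set of genes gave 6 lower. Jarid2, a cofactor of the complex, fell from 90.0 to 17.9 CPM (log2 fold change -2.33), while Ezh1, the second methyltransferase, rose from 14.4 to 58.9 CPM (2.03). The list's median of -0.22 turned to 0.81 under library totals.

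Adhesion and matrix genes were mostly lower at day 1. All 9 leukocyte adhesion molecules tested were lower at day 1, with a median log2 fold change of -3.21. Sele, which encodes E-selectin of activated endothelium, had 249, 182 and 149.5 CPM at hour 3 and 3.64, 1.86 and 2.42 at day 1 (log2 fold change -6.18, SE 0.56, adjusted p = 1.12e-08). Vcam1, a ligand of leukocyte integrins, had 1303, 698 and 851 CPM at hour 3 and 85.8, 139 and 83.1 at day 1 (log2 fold change -3.21, SE 0.28, adjusted p = 6.08e-09), and day 1 did not differ detectably from hour 0 (log2 fold change 0.20, adjusted p = 0.563). Icam1 fell from a mean of 1386 to 318 CPM (log2 fold change -2.12) and the hyaluronan receptor gene Cd44 from 2120.0 to 211 CPM (-3.33). Of the 5 blood endothelial markers tested, 2 were higher at day 1 and 3 were not called, with a median of 0.31, and their part in the fall of Sele was not tested.

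Among 24 matrix glycoproteins and cross-linking enzymes, 19 were lower and 3 higher (median log2 fold change -2.19). Thbs1 (ENSMUSG00000040152, chr2:118111876-118127133), which encodes thrombospondin-1, had 80689.5, 61968 and 61619 CPM at hour 3 and 2626, 1559 and 3119.7 at day 1 (log2 fold change -4.81, SE 0.36, adjusted p = 7.29e-10). It was among the most abundant transcripts of the hour 3 libraries, where the 10 highest genes held 20.7% to 24.1% of all counts, against 9.73% to 13.2% at day 1. Lox, the lysyl oxidase that cross-links collagen, had 5244, 4141 and 4189 CPM at hour 3 and 146, 59.1 and 195 at day 1 (log2 fold change -5.08, SE 0.37, adjusted p = 6.18e-10). Ccn2, a target of TGF-beta and YAP signalling, fell from a mean of 5279 to 259 CPM (log2 fold change -4.35). Tnc, which encodes tenascin-C, was not called, at 555 CPM at hour 3 and 483 at day 1, against 30.7 at hour 0. Loxl3, another lysyl oxidase, rose from 83.1 to 329 CPM (log2 fold change 1.98, SE 0.18, adjusted p = 1.53e-08).

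Proteases and their inhibitors were lower in 15 of 20 tested genes and higher in 1 (median log2 fold change -1.88). Plau, the urokinase gene, had 5726, 3531 and 3639 CPM at hour 3 and 60.0, 49.1 and 78.7 at day 1 (log2 fold change -6.10, SE 0.27, adjusted p = 1.42e-12), which is below hour 0 as well, with 473, 484 and 428 CPM there (log2 fold change -2.88, adjusted p = 6.08e-09). Timp1, a metalloprotease inhibitor, was not called, with means of 7.12 CPM at hour 0, 605 at hour 3 and 854 at day 1 (day 1 against hour 3, log2 fold change 0.50, SE 0.37, adjusted p = 0.245). Mmp19 was the member that rose, from 321 to 585 CPM.

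A second kind of fall was seen in genes such as Pdgfra and Col15a1, whose hour 3 level was near the uninfected level. Hour 0 and hour 3 lie in different sets of libraries, which limits that comparison. Pdgfra (ENSMUSG00000029231, chr5:75152292-75198215), which encodes a receptor of platelet-derived growth factor and marks fibroblasts, had 2298, 2124 and 1982 CPM at hour 0, 2243, 2052 and 2238 at hour 3 and 160.4, 193 and 203 at day 1 (log2 fold change -3.56, SE 0.18, adjusted p = 6.92e-12). In the same set of libraries, day 1 was also lower than hour 0 (log2 fold change -3.53, adjusted p = 1.3e-11), and day 2 was higher than day 1 (log2 fold change 1.54, adjusted p = 1.9e-06). Col15a1, a basement membrane collagen, had 4526, 4039 and 4139 CPM at hour 0, 4771, 4593 and 4639 at hour 3 and 65.0, 58.4 and 99.0 at day 1 (log2 fold change -5.98, SE 0.28, adjusted p = 1.95e-12). Of 23 genes of resting fibroblasts, 21 were lower at day 1 than at hour 3 and 2 were higher, with a median of -2.51, and 19 were lower at day 1 than at hour 0, beside 24.3% of all tested genes. Gsn, which encodes gelsolin, went from 45329.9, 34522 and 38667 to 4568, 4948 and 3795 CPM (log2 fold change -3.15, SE 0.26, adjusted p = 2.66e-09). Clec3b, Smoc2, Dpep1 and Pi16 fell by 3.03 to 3.96 on the log2 scale, and Smoc2 had means of 1206 CPM at hour 0 and 1806 at hour 3. In the set of hour 3, 20 of the 23 genes were higher at hour 3 than at day 8 and 1 was lower, beside 31.1% and 35.1% of all tested genes. Against day 23, 10 were higher at hour 3 and 3 lower, beside 30.1% and 35.8%. The members that rose were Ly6a, which encodes the interferon-inducible surface antigen Sca-1, from 181 to 599 CPM, and Twist2, from 3.97 to 9.41 CPM.

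Collagen genes were lower in 15 of 17 and higher in 1 (median log2 fold change -1.57, and -0.53 with 9 lower under library totals). Col1a1, of fibrillar type I collagen, had 6208, 7659 and 6876 CPM at hour 3 and 3303, 2461 and 4036 at day 1 (log2 fold change -1.08, SE 0.22, adjusted p = 0.000267), and Col3a1, of type III, went from 7470.1 to 4983 CPM (log2 fold change -0.58, SE 0.26, adjusted p = 0.0485). The sign of Col3a1 turned under library totals, and its call was lost with only the 6 libraries compared (edgeR adjusted p = 0.0592) and when any library but hour 3 replicate 4 was left out (adjusted p from 0.0563 to 0.201). Col1a1 was not called under library totals. Col14a1 fell from 1854 to 102 CPM (log2 fold change -4.19) and Col4a1 of the basement membrane from 13370.2 to 2074 CPM (-2.69). Col8a1 rose from 8.93 to 30.3 CPM (1.77). Genes of TGF-beta, activin, BMP and Wnt signalling were lower in 12 of 17 and higher in 2. Among them, the inhibitory Smad gene Smad7 fell from 407 to 81.0 CPM (-2.33), and Axin2, a target of Wnt signalling, rose from 2.69, 1.15 and 2.86 to 9.30, 22.3 and 13.8 CPM (log2 fold change 2.75, SE 0.34, adjusted p = 6.74e-07), with 33.2 CPM at hour 0. Pdpn, the gene of the sorting antigen, had 805, 699 and 633 CPM at hour 3 and 430.0, 215 and 377 at day 1 (log2 fold change -1.06, SE 0.21, adjusted p = 0.000182), and the difference was -0.03 and not called under library totals. Day 1 was above hour 0, which had a mean of 67.1 CPM (log2 fold change 2.35, adjusted p = 3.72e-08). Contractile genes were lower in 7 of 10 and higher in 3, with a median of -0.88 that turned to 0.15 under library totals, with 2 lower, and 4 of the 5 mural cell markers tested were lower too.

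**Figure D4:**
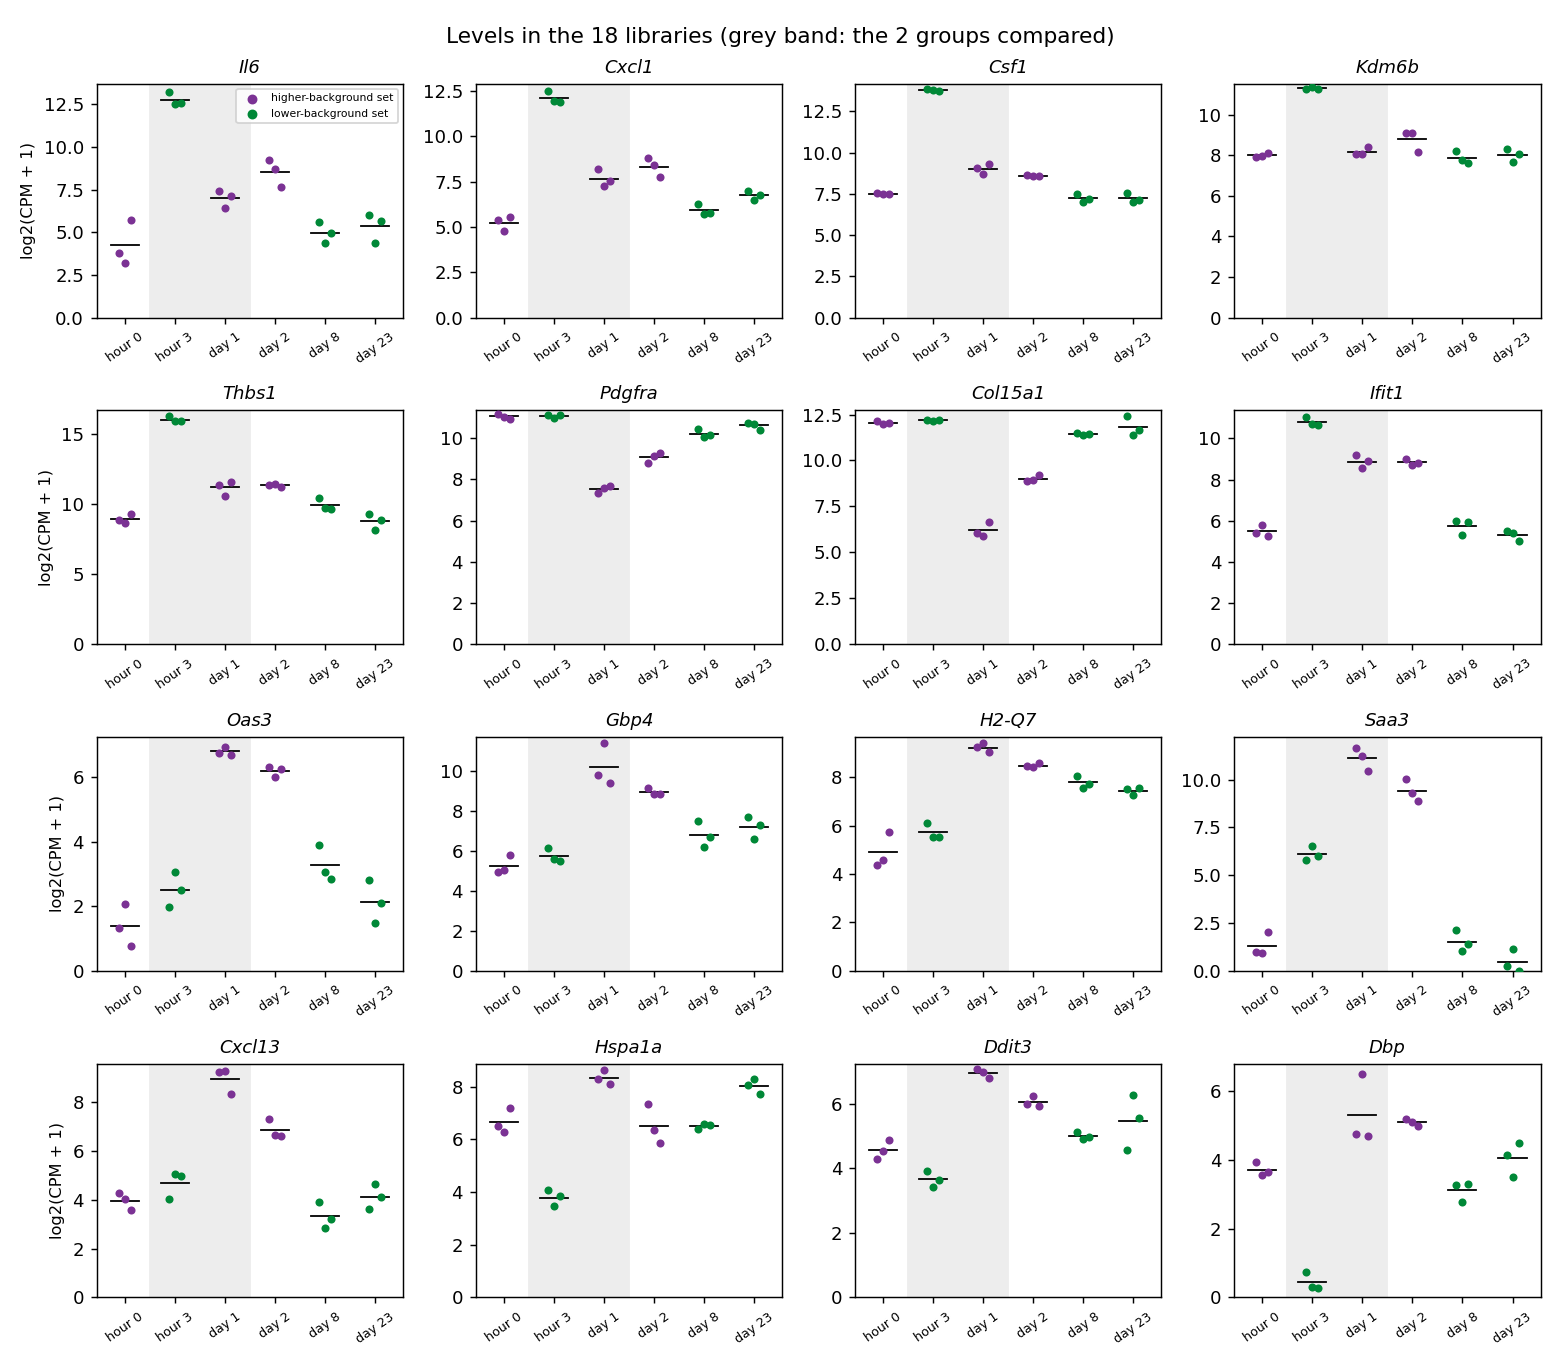
Levels of 16 genes as log2(CPM + 1) in each of the 18 libraries, with a bar for each group's mean, purple for the libraries with higher receptor background and green for those with lower. Il6, Cxcl1, Csf1, Kdm6b, Thbs1 and Ifit1 are highest at hour 3, Oas3, Gbp4, H2-Q7, Saa3, Cxcl13 and Ddit3 are highest at day 1, and Pdgfra and Col15a1 are lowest at day 1.

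Interferon-stimulated genes went both ways between hour 3 and day 1. Of 30 type I interferon-stimulated genes, 14 were higher at day 1 and 8 were lower, beside 35.4% and 33.6% of all tested genes. Their median log2 fold change was 0.29. With TMM over the wider set of genes, 11 were higher and 11 lower. The lower count was 5 without hour 3 replicate 4 or without day 1 replicate 14, and library totals gave 23 higher and 2 lower. All 30 were higher at day 1 than at hour 0, beside 22.8% of all tested genes, and 27 were higher at hour 3 than at day 8, beside 31.1%. Ifit1, an RNA-binding inhibitor of viral translation, had 2141, 1663 and 1601 CPM at hour 3 and 575, 374 and 476 at day 1 (log2 fold change -1.92, SE 0.22, adjusted p = 2.08e-07), against 44.5 CPM at hour 0. Rsad2, which encodes the antiviral enzyme viperin, had 1837, 1035 and 1017 CPM at hour 3 and 599, 492 and 635 at day 1 (log2 fold change -1.17, SE 0.22, adjusted p = 0.000103), a fall that was not called under library totals. The RNA sensor gene Ifih1 fell from a mean of 621 to 193 CPM (log2 fold change -1.69).

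A rise from hour 3 to day 1 was steep in Oas3, a synthetase of the second messenger that activates RNase L, which had 2.91, 7.35 and 4.73 CPM at hour 3 and 108, 123 and 103 at day 1 (log2 fold change 4.47, SE 0.41, adjusted p = 1.46e-08). At hour 3 it was above the uninfected libraries, which had 1.49, 3.24 and 0.72 CPM (log2 fold change 1.53, adjusted p = 0.00881). Bst2, the gene of tetherin, had 54.6, 52.1 and 44.3 CPM at hour 3 and 494, 392 and 443 at day 1 (log2 fold change 3.14, SE 0.24, adjusted p = 1.44e-09). Irf7, the transcription factor of interferon amplification, had 363, 260.1 and 249 CPM at hour 3 and 1123, 861 and 957 at day 1 (log2 fold change 1.75, SE 0.21, adjusted p = 3.53e-07). Zbp1, a sensor of Z-form nucleic acid, rose from 59.3 to 434 CPM (log2 fold change 2.87), Oas2 from 28.1 to 241 CPM (3.10), and Mx1, an antiviral GTPase, from 68.1 to 295 CPM (2.12). Ifit2, Ifi35, Mx2, Ddx58, Dhx58, Cmpk2, Rtp4 and Ifit3b did not pass, with log2 fold changes between -0.43 and 0.29, and those below 0 turned in sign under library totals.

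Genes typical of interferon-gamma were higher at day 1 in 12 of 20 and lower in 2, with a median log2 fold change of 1.30. Gbp4, a guanylate-binding protein gene, had 70.0, 47.3 and 44.3 CPM at hour 3 and 896, 2658 and 663 at day 1 (log2 fold change 4.71, SE 0.48, adjusted p = 4.96e-08). Tgtp1, an immunity-related GTPase gene, had 6.94, 2.30 and 4.40 CPM at hour 3 and 106, 200.1 and 78.1 at day 1 (log2 fold change 4.81, SE 0.47, adjusted p = 3.14e-08). Cxcl9, a ligand of CXCR3 on T cells, had 116, 109.5 and 90.1 CPM at hour 3 and 419, 1349 and 296 at day 1 (log2 fold change 2.71, SE 0.50, adjusted p = 8.39e-05). In each of these, day 1 replicate 14 was the highest library, and in that library the macrophage, monocyte and dendritic cell markers were also highest. Without replicate 14 the list had 12 members higher and 4 lower, with a median of 0.89. The 2 members that were lower were Cxcl10, another CXCR3 ligand, with 1852, 1529 and 1188 CPM at hour 3 and 674, 609.7 and 499 at day 1 (log2 fold change -1.36, SE 0.32, adjusted p = 0.000821), and Cd274, the gene of PD-L1, from a mean of 778 to 313 CPM. Neither fall was called under library totals. Gbp2 and Gbp5, with hour 3 means of 1842 and 512 CPM, had day 1 means of 2164 and 499 and were not called, and Gbp5 turned in sign under library totals. Guanylate-binding protein genes and the Tgtp genes are near copies of each other, so reads may be divided among them with error.

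Promoters of 3 genes that rose and of Ifit1, which fell, are shown because all of them hold the letters of an interferon-stimulated response element, TTTC, any 2 bases and TTTC, on either strand (capitals, RefSeq GRCm38.p6, drawn as for the chemokine genes).
Oas3, chr5:120777662-120777909, - strand: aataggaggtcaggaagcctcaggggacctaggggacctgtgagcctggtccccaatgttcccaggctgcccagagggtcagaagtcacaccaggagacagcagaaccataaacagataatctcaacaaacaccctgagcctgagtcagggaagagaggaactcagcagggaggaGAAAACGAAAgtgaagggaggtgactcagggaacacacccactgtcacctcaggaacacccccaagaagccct
Bst2, chr8:71537473-71537722, - strand: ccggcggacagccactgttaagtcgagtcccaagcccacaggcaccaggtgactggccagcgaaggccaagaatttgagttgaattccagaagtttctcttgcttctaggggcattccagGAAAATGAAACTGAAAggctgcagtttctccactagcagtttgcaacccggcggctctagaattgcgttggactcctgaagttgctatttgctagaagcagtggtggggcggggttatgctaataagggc
Igtp, chr11:58199306-58199555, + strand: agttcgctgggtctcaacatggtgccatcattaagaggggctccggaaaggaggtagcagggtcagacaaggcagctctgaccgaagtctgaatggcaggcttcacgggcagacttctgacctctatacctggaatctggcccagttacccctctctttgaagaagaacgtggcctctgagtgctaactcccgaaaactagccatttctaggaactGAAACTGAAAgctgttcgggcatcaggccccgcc
Ifit1, chr19:34640639-34640870, + strand: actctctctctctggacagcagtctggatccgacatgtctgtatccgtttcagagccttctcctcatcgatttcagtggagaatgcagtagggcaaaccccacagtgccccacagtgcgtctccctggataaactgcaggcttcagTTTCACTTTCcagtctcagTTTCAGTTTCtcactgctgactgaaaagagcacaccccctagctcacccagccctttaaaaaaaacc
In Bst2 the capitals are 2 matches that overlap. The letters were found in 11 of the 15 interferon-gamma-responsive genes and 8 of the 22 type I genes with an entry, against 3.46% of all 27025 genes with a promoter entry and 3.4% of the tested genes that have one. Igtp, an immunity-related GTPase gene, had 170.1, 134 and 127 CPM at hour 3 and 468, 912 and 365 at day 1 (log2 fold change 2.02, SE 0.30, adjusted p = 6.21e-06). Genes holding the letters went both ways, since Cxcl10, Ifit1 and Rsad2 hold them and fell, and over all 276 tested genes with them 37% were higher and 31.2% lower, near the 36.4% and 32.6% of all tested genes with an entry. The letters of a gamma-activated site, TTC, any 3 bases and GAA, were found in 8 of the 15 interferon-gamma-responsive genes and 8.13% of all genes with an entry, and both kinds of letters overlapped in 7 of 10478 windows of the tested genes.

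**Figure D5:**
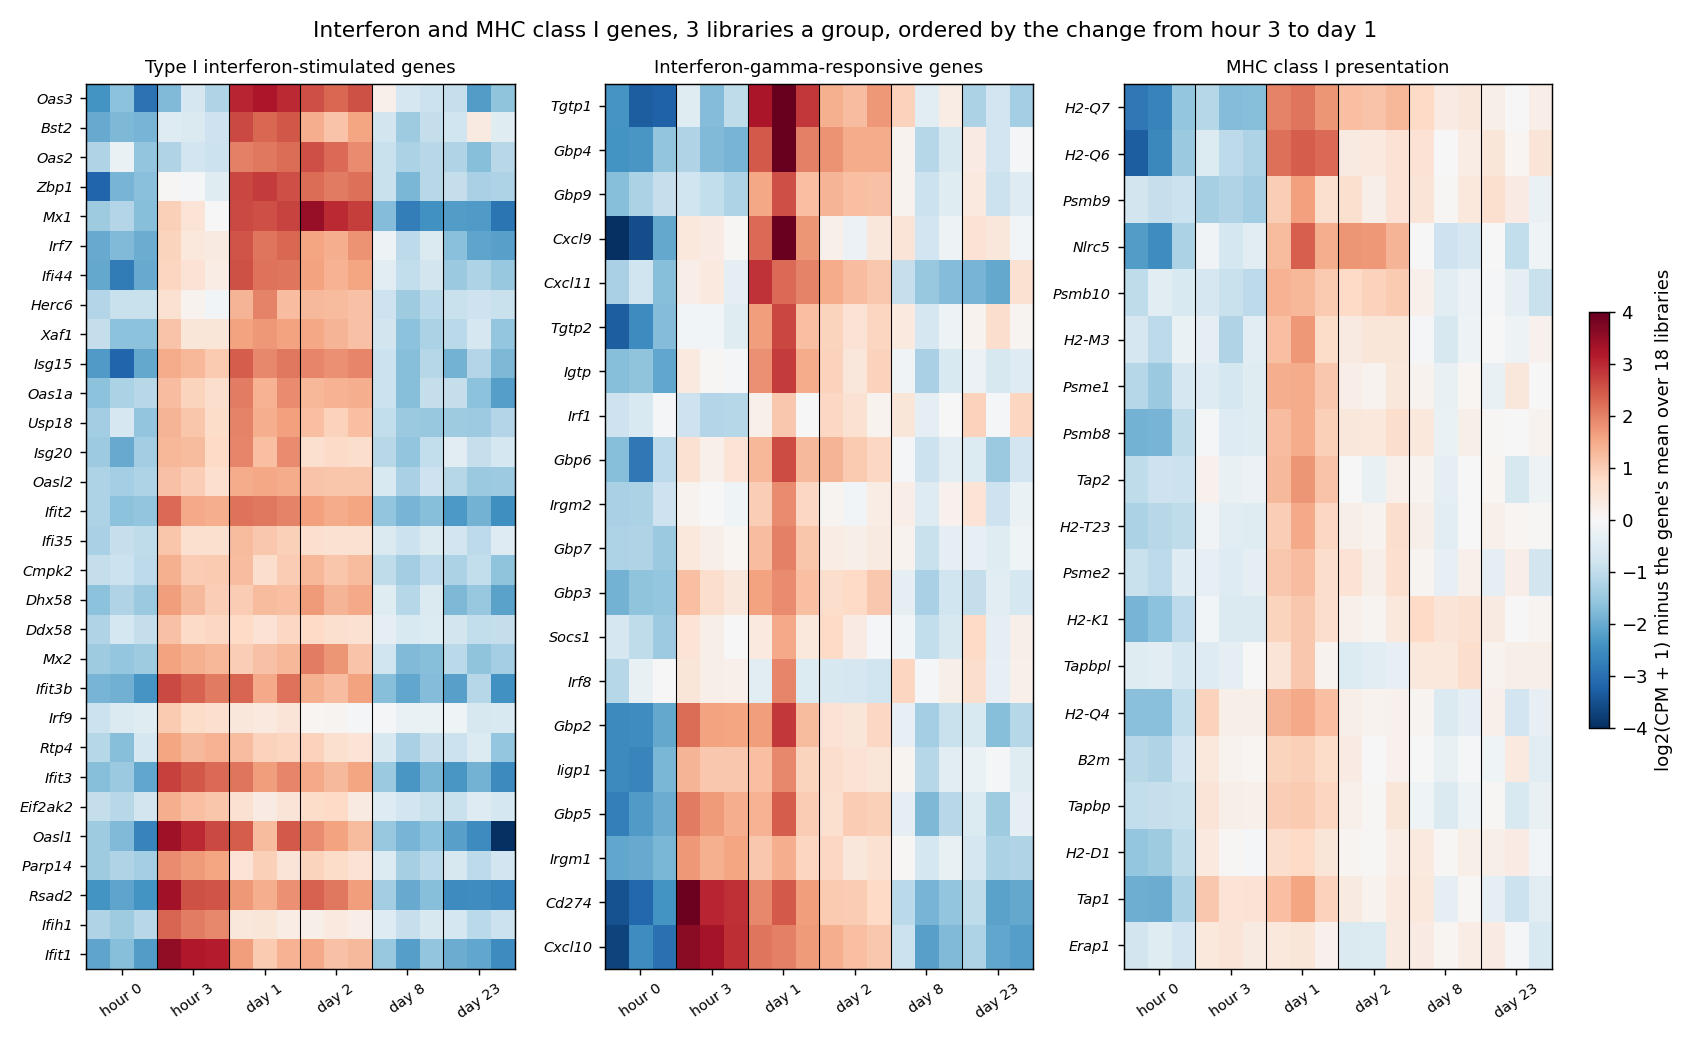
Levels of 30 type I interferon-stimulated, 20 interferon-gamma-responsive and 19 MHC class I genes in the 18 libraries, as log2(CPM + 1) minus the gene's mean over all libraries (colour), with rows ordered by the change from hour 3 to day 1. In the type I panel Ifit1, Ifih1 and Rsad2 are reddest at hour 3 and Oas3 and Bst2 at day 1, and in most rows of the interferon-gamma panel day 1 replicate 14 (the middle day 1 column) is the reddest.

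MHC class I presentation genes were higher at day 1 in 17 of 19 and lower in none, with a median log2 fold change of 1.49. H2-Q7, a class Ib molecule, had 68.5, 45.1 and 45.4 CPM at hour 3 and 597, 679 and 517 at day 1 (log2 fold change 3.49, SE 0.28, adjusted p = 2.3e-09). It shares near-identical sequence with H2-Q6, so that the division of reads between them is uncertain. Psmb9, an immunoproteasome subunit, had 8.84, 9.64 and 8.35 CPM at hour 3 and 47.3, 75.7 and 37.5 at day 1 (log2 fold change 2.58, SE 0.26, adjusted p = 5.88e-08). Nlrc5, the transactivator of class I genes, had 101, 68.6 and 80.6 CPM at hour 3 and 267, 585 and 310.2 at day 1 (log2 fold change 2.21, SE 0.34, adjusted p = 1.03e-05). The light chain gene B2m moved less, with 1619.9, 1310.1 and 1274 CPM at hour 3 and 2235, 2348 and 1982 at day 1 (log2 fold change 0.64, SE 0.20, adjusted p = 0.00699), and was not called with TMM over the wider set of genes (log2 fold change 0.40, edgeR adjusted p = 0.0872). All 19 were higher at day 1 than at hour 0, beside 22.8% of all tested genes. At hour 3, 3 were higher and 7 lower than at day 8, in the same set of libraries, beside 31.1% and 35.1% of all tested genes, so the lower share was near that of any gene. Of 11 interferon and receptor genes, 5 receptor genes passed the filter and none of the interferon genes did. Among the 5, Ifngr2 fell from 127 to 60.3 CPM (log2 fold change -1.07) and Ifnar1 from 70.5 to 50.5 CPM, the latter turning to a rise of 0.55 under library totals and not called with no filter on low counts (edgeR adjusted p = 0.0735). Ifngr2 was not called under library totals.

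Of 15 acute-phase and complement genes, 6 were higher and 4 lower, beside 35.4% and 33.6% of all tested genes. Saa3 and Lcn2 were the steepest. With TMM over the wider set of genes 3 were higher, and library totals gave 11 higher and 2 lower. Saa3 (ENSMUSG00000040026, chr7:46711998-46715700), a serum amyloid A gene, had 54.4, 91.0 and 62.6 CPM at hour 3 and 3209, 2371 and 1394 at day 1 (log2 fold change 5.07, SE 0.45, adjusted p = 7.58e-09), with means of 1.64 CPM at hour 0 and 708 at day 2. Lcn2, which encodes the siderophore-binding protein lipocalin-2, had 34.6, 53.6 and 42.1 CPM at hour 3 and 966, 1044 and 676 at day 1 (log2 fold change 4.37, SE 0.45, adjusted p = 6.07e-08). Saa3 at hour 3 was already above hour 0 (log2 fold change 5.32, adjusted p = 3e-08), as was Lcn2 (log2 fold change 3.87, adjusted p = 1.29e-06), and for both genes day 1 had the highest mean of the time course. The complement gene C3 was not called, at 8443 and 10950.0 CPM.

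Lymphoid homing and immunofibroblast genes went both ways, with 5 of 14 higher and 6 lower, near the 35.4% and 33.6% of all tested genes. Library totals gave 8 higher and 4 lower. Cxcl13 (ENSMUSG00000023078, chr5:95956951-95961068), the chemokine that draws B cells through CXCR5, had 15.1, 32.4 and 30.5 CPM at hour 3 and 592, 606 and 320.3 at day 1 (log2 fold change 4.28, SE 0.36, adjusted p = 4.61e-09). It had 18.3, 15.3 and 11.0 CPM at hour 0 and 155, 99.4 and 96.6 at day 2, and day 2 was lower than day 1 (log2 fold change -2.11, adjusted p = 9.38e-05). Cxcl12, the ligand of CXCR4, fell, with 1005, 654 and 720.4 CPM at hour 3 and 58.3, 78.7 and 72.9 at day 1 (log2 fold change -3.50, SE 0.21, adjusted p = 5.2e-11), below hour 0 too (log2 fold change -2.62, adjusted p = 3e-09). Il15, a survival cytokine of NK and memory T cells, had 11.5, 8.15 and 9.12 CPM at hour 3 and 50.7, 80.8 and 40.6 at day 1 (log2 fold change 2.58, SE 0.29, adjusted p = 2.43e-07). Ltbr, the lymphotoxin-beta receptor gene, rose from 50.5 to 98.4 CPM (log2 fold change 0.96), and Tnfrsf1b, which encodes TNF receptor 2, fell from 188 to 69.8 CPM (-1.43). Ccl19 and Ccl21a were under the filter.

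Heat-shock chaperone genes were higher in 10 of 14 and lower in 1 (median log2 fold change 0.61), and in 6 and 3 with TMM over the wider set of genes. Hspa1a, which encodes an inducible Hsp70, had 15.8, 9.99 and 13.3 CPM at hour 3 and 317, 395 and 277 at day 1 (log2 fold change 4.66, SE 0.34, adjusted p = 5.24e-10), and its near-identical copy Hspa1b had 20.4, 19.7 and 28.8 CPM at hour 3 and 466, 734 and 403 at day 1. Hour 3 was the low group for Hspa1a, below hour 0 (mean 104 CPM) and, in its own set, below day 23 (log2 fold change -4.34, adjusted p = 1.39e-09). Genes of the unfolded protein response were higher in 9 of 20 and lower in 6, beside 35.4% and 33.6% of all tested genes. There were 3 higher over that wider set, and 17 higher and 1 lower under library totals. Ddit3, which encodes the stress factor CHOP, had 14.2, 9.64 and 11.5 CPM at hour 3 and 132, 126 and 109 at day 1 (log2 fold change 3.37, SE 0.30, adjusted p = 9e-09), above hour 0 as well (log2 fold change 2.42, adjusted p = 6.71e-07). Hspa5, the endoplasmic reticulum chaperone BiP, went from 1839 to 1269.8 CPM (log2 fold change -0.53, SE 0.22, adjusted p = 0.0344), which turned to a rise of 0.50 under library totals. Its call was lost without hour 3 replicate 4 (edgeR adjusted p = 0.131), hour 3 replicate 5 (0.0514), day 1 replicate 14 (0.146) or day 1 replicate 15 (0.0511). The metallothionein and oxidative stress list had 8 of 15 lower and 4 higher, with 2 higher when hour 3 replicate 5 was left out. Mt2, a metallothionein, had 4082, 3305 and 3207 CPM at hour 3 and 654, 259 and 603 at day 1 (log2 fold change -2.81, SE 0.34, adjusted p = 4.5e-07), and Hmox1, heme oxygenase 1, had 703, 667 and 534 CPM at hour 3 and 156, 80.4 and 150.1 at day 1 (log2 fold change -2.30, SE 0.24, adjusted p = 8.44e-08). The list's median of -0.54 turned to 0.50 under library totals, with 8 higher.

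Cell death genes were higher in 12 of 19 and lower in 2, with a median log2 fold change of 1.29. Bax, a pore-forming member of the Bcl-2 family, had 4.93, 5.74 and 3.63 CPM at hour 3 and 35.4, 27.9 and 38.8 at day 1 (log2 fold change 2.84, SE 0.35, adjusted p = 6.72e-07). Ripk3, the kinase of necroptosis, had 6.27, 6.20 and 3.52 CPM at hour 3 and 36.1, 33.9 and 36.0 at day 1 (log2 fold change 2.73, SE 0.31, adjusted p = 2.88e-07). Bak1, Tnfsf10, Tnfrsf10b, Casp8 and Casp12 also rose by more than 2-fold, and Bcl2l11 and Ripk1 fell, though neither fall was called under library totals. Bcl2l1, a survival gene of the Bcl-2 family, was higher too (log2 fold change 1.405). The list had 5 genes without a call, among them Mcl1 (0.13) and Bbc3 (-0.009). In the set shared with hour 0, 15 of the 19 were higher at day 1 than at hour 0 and none lower, beside 22.8% and 24.3% of all tested genes.

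Genes of growth and metabolism went both ways. All 16 ribosome biogenesis genes were lower at day 1 (median log2 fold change -1.30), and library totals left 5 lower and none higher. Nop58, of the box C/D small nucleolar particle, had 336, 322 and 323 CPM at hour 3 and 90.6, 52.2 and 64.9 at day 1 (log2 fold change -2.24, SE 0.20, adjusted p = 8.96e-09). All 16 were also higher at hour 3 than at day 8 and than at day 23, and higher at day 1 than at hour 0. Ribosomal protein genes were lower in 12 of 20 and higher in none (median -0.51), a direction that turned under library totals, with 17 higher. Without day 1 replicate 14, 7 were lower and 1 higher. Hk2, the inducible hexokinase, had 3041, 2445 and 2521 CPM at hour 3 and 205, 171 and 244 at day 1 (log2 fold change -3.69, SE 0.24, adjusted p = 1.49e-10), as the glucose transporter gene Slc2a1 went from 346 to 97.9 CPM (log2 fold change -1.82). Some other enzymes of glycolysis moved the opposite way, Pkm from 197, 187 and 198 to 727, 534 and 729 CPM (log2 fold change 1.77, SE 0.17, adjusted p = 3.54e-08), with Eno1, Pgk1, Tpi1 and Gpi1 also higher. Ldha, Pfkfb3 and Hk1 fell as Hk2 did (log2 fold changes -1.13, -1.87 and -0.58), and Aldoa, Pgam1 and Pfkp were not called. Over the whole glycolysis and hypoxia list, 9 of 19 were higher and 7 lower, beside 35.4% and 33.6% of all tested genes. Cholesterol synthesis genes were lower in 8 of 14 and higher in 2 (median -0.77, turning to 0.26 with 7 higher and 3 lower under library totals, and 1 higher without hour 3 replicate 5), and Insig1, which retains the SREBP complex, fell from 126 to 17.3 CPM. Cell cycle genes were higher in 7 of 14 and lower in 1, while 3 were lower without hour 3 replicate 5, 2 without day 1 replicate 13 and 5 with TMM over the wider set, and library totals gave 11 higher. Mcm2, of the replicative helicase, had 2.35, 4.48 and 7.59 CPM at hour 3 and 31.2, 20.7 and 38.1 at day 1 (log2 fold change 2.64, SE 0.31, adjusted p = 3.26e-07). Mki67, a marker of cycling cells, was not called, at 5.49 and 7.05 CPM, against 143 at day 8.

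Clock genes went both ways. Of 17 tested, 7 were higher and 7 lower (10 and 4 under library totals), beside 35.4% and 33.6% of all tested genes. Dbp, an output gene of the clock driven by CLOCK and BMAL1, had 0.672, 0.23 and 0.22 CPM at hour 3 and 25.8, 88.7 and 24.8 at day 1 (log2 fold change 6.90, SE 0.58, adjusted p = 4e-09), against 14.2, 10.8 and 11.6 at hour 0, with 10 counts in all at hour 3. Arntl, which encodes BMAL1, had 219, 189 and 187 CPM at hour 3 and 25.5, 17.2 and 29.7 at day 1 (log2 fold change -3.03, SE 0.21, adjusted p = 3.1e-10). Npas2 fell from 74.1 to 8.03 CPM (log2 fold change -3.20), while Per2, Per3 and Tef rose by 2.34 to 3.51. In the set of hour 3, Dbp was lower at hour 3 than at day 8 (log2 fold change -4.33, adjusted p = 3.37e-06). At what time of day glands were taken is not given in the sources used here.

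Predicted gene models, clones, Rik names, mitochondrially encoded genes and segments of antibody or T cell receptor genes were left out of the ranking of single genes. Among the other called genes, the 15 largest rises with a mean of at least 20 CPM and no overlap between groups were, in falling order, Ptprn, Gbp10, Gdf15, Dbp, Apol6, Gbp8, Clic5, Gbp11, Ecscr, Zfp324, Saa3, Zfp467, Pgpep1, Ces2c and Ttn. Ptprn, which encodes a protein of secretory granules, had 3 counts over the hour 3 libraries and 776 over day 1. Its ratio by library totals was 385, with a 95% counting interval of 131 to 1873. Ptprn levels followed the sets of libraries. Mean CPM in the set with higher background was 3.02 (hour 0), 20.4 (day 1) and 36.3 (day 2). The set with lower background had 0.115 (hour 3), 0.523 (day 8) and 0.0285 (day 23). For Ptprn, set and time therefore cannot be told apart in that ratio, although day 1 also had a higher mean than hour 0. Gdf15, a stress-induced cytokine, had 1.12, 0 and 0.11 CPM at hour 3 and 61.3, 31.2 and 70.0 at day 1 (log2 fold change 7.00, SE 0.71, adjusted p = 5.29e-08), and 0.545 CPM at hour 0. Gbp10 had 2.13, 1.61 and 2.20 CPM at hour 3 and 202, 556 and 146 at day 1, with replicate 14 highest (log2 fold change 7.24, SE 0.56, adjusted p = 1.37e-09). Some of the 15 were also well counted in uninfected libraries of the same set, such as Ttn, the giant muscle protein gene, with means of 70.4 CPM at hour 0, 0.959 at hour 3, 28.2 at day 1 and 138 at day 2. Zfp467 and Zfp324 had means of 23.8 and 13.7 CPM at hour 0, and 1.12 and 0.745 at hour 3. In the set of hour 3 they had 17.7 and 9.07 at day 8, and 22.3 and 10.0 at day 23. For these genes hour 3 was therefore the low group, in both sets.

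By the same rule, the 15 largest falls were Alkal2, Smgc, Sele, Plau, Abcc9, Lpo, Pip, Scgb1b27, Col15a1, Scgb2b27, C7, Il6, Itga8, Cspg4 and Gpr84. Alkal2, a ligand of the receptor kinases ALK and LTK, had 63.6, 41.4 and 58.6 CPM at hour 3 and 0.405, 0 and 0 at day 1, from 1462 and 5 counts (log2 fold change -8.51, SE 0.62, adjusted p = 5.76e-10). The ratio by library totals was 196, with a 95% counting interval of 83.9 to 605 that again leaves out the spread between mice. Smgc, Lpo, Pip, Scgb1b27 and Scgb2b27 are secretory genes of salivary epithelium and belong to the acinar list of 21 genes, of which 12 passed the filter. Of these 12, 11 were lower and none higher (median log2 fold change -4.75). A gene such as Smgc, with 0.434 CPM at day 1, met the filter through hour 3 alone and could enter only with a fall. The sum over all 21 genes, given above, does not depend on the filter. Abcc9 and Cspg4 are markers of mural cells, as given above. Cspg4 was also higher at hour 3 (1492 CPM) than at day 8 (88.0 CPM, log2 fold change 4.08, adjusted p = 4.57e-11) and day 23. Small noncoding RNA genes were lower in 29 of 37 and higher in 1, and their level followed the sets of libraries, with median levels of 20.4 CPM in hour 3, 13.1 in day 8 and 14.9 in day 23 libraries, and of 4.64 in day 1, 3.44 in hour 0 and 4.86 in day 2 libraries. The hour 3 libraries alone can meet the filter, so genes high only there could enter this count and raise the hour 3 median.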

How the data were processed

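RNA was measured by sequencing in sorted gp38+ cells, 1 library a mouse, 3 mice in each of 6 groups. The deposited values are raw counts per gene, and per the submitters' processing notes FastQC, STAR, Subread and DESeq2 were used with mm10. Versions and strand setting are not given in the sources used here, so reads of a gene and its antisense partner may not be separated. From 55401 gene identifiers, 55141 matched GENCODE M21, and the other 260 held 0.0241% of counts.

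With edgeR 4.0.16 in R 4.3.3 (quasi-likelihood test, TMM scaling), 1 model covered all 18 libraries, so that the groups share 1 estimate of the spread. Genes needed 5 CPM in at least 3 of the 6 compared libraries. Calls are at a Benjamini-Hochberg adjusted p under 0.05 over all genes tested, and the 2-fold question used edgeR's test against a threshold. SE is the log2 fold change over the root of the F statistic. On simulated counts of 10515 genes, 100 genes were changed by 1 on the log2 scale and 100 by 2. The fit recovered 62% and 97% of these, with 6 false calls. Far fewer genes were changed there than were called here, and no background difference was simulated, so these values may not hold for this comparison. No pair of libraries within a group was a duplicate.

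Predicted gene models and the other kinds of gene given above were left out of the ranking. The genes named are the 15 largest rises and falls without overlap (20 CPM or more), up to 4 called members of each list in each direction (10 CPM or more), and a few chosen genes. Others, such as Timp1, Tnc, Vcam1, Mki67, Notch3, S100a9, Lpl and the members given as not called, were chosen after their values were seen. The comparison and the lists were chosen with earlier results of these data known. Alternatives were other scalings, filters, sample sets, DESeq2 1.42.0 and limma-voom 3.58.1, and each library left out.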

Additional observations from a re-analysis of the deposited data

How the results depend on the processing

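Scaling and the filter moved the counts most. Genes higher at day 1 numbered 7080 with library totals alone, 8830 with no filter on low counts (47602 genes tested) and 2198 with a filter of 20 CPM (6849 genes tested), and genes lower at day 1 numbered 1367 with library totals. For more than 2-fold, library totals gave 4389 higher and 598 lower, no filter 4763 higher, the 20 CPM filter 788 higher, the DESeq2 Wald test 1031 higher and limma-voom 1017 higher. The fewer and additional genes tested bear on the filter counts, and the cause of the difference between tests was not tested. Of 5507 genes called both with TMM and with library totals, 418 had opposite directions. Leaving out each library in turn gave 3407 to 3532 genes higher, 3317 to 3419 lower, 1401 to 1515 higher by more than 2-fold and 1481 to 1558 lower by more than 2-fold. Among the genes named, 142 kept direction and call under library totals, 9 gained a call, 8 lost it and 14 turned in sign. Their log2 fold changes there were 0.95 for Ccl8, 0.86 for Cmpk2, 0.45 for Col3a1, 0.84 for Ddx58, 0.85 for Dhx58, 0.79 for Dusp6, 0.66 for Ezh2, 0.99 for Gbp5, 0.50 for Hspa5, 0.46 for Ifit3, 0.70 for Ifit3b, 0.55 for Ifnar1, 0.74 for Mx2 and 0.61 for Rtp4. Under the other alternatives none of the named genes tested there turned in sign (161 of them under the 20 CPM filter), but calls of B2m, Col3a1, Hspa5, Ier2, Ifit3 and Ifnar1 were lost under at least 1 of them (adjusted p from 0.0504 to 0.226). No paired analysis was possible because each replicate number in the labels occurs in 1 group only. With 3 mice a group, changes of 2-fold were often missed on simulated counts in which few genes were changed. That share may not hold here, where most genes were called. Low genes at day 1 carry the higher background of that set of libraries.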
